A study of Ogataea parapolymorpha with 2 samples.

Results

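The genes described here are those that the deposited count table of the yeast Ogataea parapolymorpha places in category G or category M while giving them a NOG number and no COG number. COG numbers name curated groups of orthologous proteins, NOG numbers name groups of the same kind that were built automatically, and the category letters sort both by function. Of 5408 listed features 75 met this description, all protein-coding and all in category G, which stands for carbohydrate transport and metabolism. Category M, which stands for cell wall, membrane and envelope biogenesis, gave 0 members, because each of its 45 genes carries a COG number. The set is therefore one of carbohydrate genes without the wall genes its working name mentions, and category M enters below only through its 45 genes with a COG number.

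The series deals with the cell wall integrity pathway of this methylotrophic yeast, whose MAP kinase is Mpk1, and caffeine is a drug long used to put stress on yeast cell walls. There were 2 libraries, 1 for each group. The caffeine library came from cells exposed to 20 mM caffeine for 2 h, and the untreated library from the part of the same culture taken without the drug. Both parts were the DL-1 strain, called Hansenula polymorpha DL1-L in the protocols, with the genotype leu-, grown at 37 °C in YPD to an optical density of 1.0, and the labels describe no control culture grown on for the 2 h. The count totals over the 5325 protein-coding genes, called library totals below, were 17789838 reads for the caffeine library and 19184978 for the untreated library. With 1 library per group nothing below has a replicate check, no test between conditions was made, and in bulk RNA fewer cells with a transcript and less of it per cell cannot be told apart.

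Yeasts take up sugars through membrane permeases that come in families of related genes, and break down larger sugars with enzymes that often belong to families too. In Saccharomyces cerevisiae many of these genes are controlled by the sugar in the medium, glucose repressing some and inducing others, and several families have copies near chromosome ends. Neither the deposited tables nor the RefSeq gene table gives a product name for the members, so that which of them are permeases and which are enzymes is not known here and each is called by its locus tag and NOG number.

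Most members lay in a narrow class of gene length. Of the 75 genes 67 (89.3%) were 1300 to 1900 bases long, against 28.9% of the category M genes, 39% of the category G genes with a COG number and 24.6% of all protein-coding genes. The median was 1554 bases, with a shortest member of 201 and a longest of 2394 bases. The limits of 1300 and 1900 bases were not set in advance. The 75 genes fell into 52 NOG groups, of which 13 had more than 1 member and together held 36 genes.

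A few members were abundant and most were not. RPKM, the authors' read count scaled for gene length and library total, allows levels to be compared between genes of 1 library. The median member stood at 19.2 RPKM in the caffeine library and 18.2 RPKM in the untreated library, while the median protein-coding gene stood at 64.3 and 52.4 RPKM in the caffeine and the untreated library. Below 10 RPKM lay 30 members (40%) in the caffeine library and 27 members (36%) in the untreated library, against 7.17% and 10% of all genes.

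HPODL_00453 (NOG00192) stood far above the rest, at 6554 RPKM in the caffeine library and 14605 RPKM in the untreated library. Of the reads in protein-coding genes, its 169844 were 0.955% with caffeine and its 406908 were 2.12% without. No other protein-coding gene had more in the untreated library. By RPKM it ranked 15 among all protein-coding genes in the caffeine library and 3 in the untreated library. This gene alone held 67.3% of the members' reads with caffeine and 75.8% without.

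HPODL_02922 (NOG15157) followed with 411 RPKM in the caffeine library and 1231 RPKM in the untreated library. HPODL_00500 (NOG212356) had 181 RPKM with caffeine and 712 RPKM without. HPODL_03203 (NOG05972) had 315 RPKM with caffeine and 485 RPKM without. The order of the members below HPODL_02922 changed between the libraries. HPODL_02612 (NOG42033), at 331 RPKM with caffeine and 225 RPKM without, ranked just below HPODL_02922 with caffeine, a place that HPODL_00500 held in the untreated library.

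**Figure D1:**
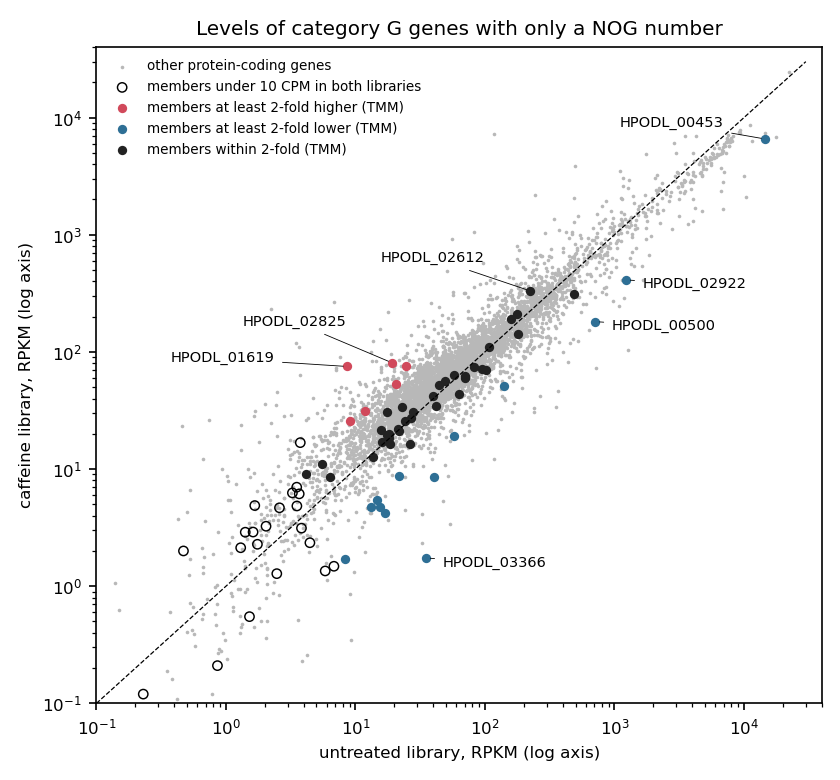
RPKM of each gene in the caffeine library (vertical, log axis) against the untreated library (horizontal, log axis), with members as large points coloured by their TMM-scaled ratio and other genes in grey; the dashed line marks equal RPKM. HPODL_00453, HPODL_02922 and HPODL_00500 lie at the abundant end and below the line, while the members at least 2-fold higher start from levels of at most 24.5 RPKM in the untreated library.

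For ratios, counts were scaled by TMM (trimmed mean of M values), and each log2 ratio of caffeine over untreated has beside it an exact 95% interval, which takes in counting error and nothing else. RPKM keeps the library totals instead, which puts the compared members' log2 ratios 0.21 to 0.22 higher than TMM does. A gene was compared where it reached 10 CPM in either library, which takes 178 reads with caffeine or 192 reads without, and 54 of the 75 members did so. Of the 54, 44 reached that level in both libraries, 4 only in the caffeine library and 6 only in the untreated library, and those 10 passed through the library in which they are high. All 6 that passed only through the untreated library are among the lower members below, namely HPODL_03366, HPODL_04540, HPODL_02606, HPODL_03809, HPODL_03496 and HPODL_03224, and 1 of the 4 that passed only through the caffeine library, HPODL_01619, is among the higher ones.

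Members past 2-fold were more often lower than higher in the caffeine library. Of the 54 compared members 13 (24.1%) were lower by 2-fold or more, 6 (11.1%) were higher by as much, and 35 lay inside those limits. Among all 4861 compared genes 5.27% were that much lower and 7.12% that much higher. Beyond 4-fold lay 5 lower members and 1 higher one, where 1.03% of all compared genes were lower and 1.38% higher. With library totals 3 members were that much lower and 2 higher, against 0.72% and 1.93% of all compared genes, and of the members at 10 CPM in both libraries 2 were 4-fold lower and 0 higher under TMM. The members' median log2 ratio was -0.20, with quartiles of -0.88 and 0.06, against a median of 0.01 and quartiles of -0.33 and 0.39 over all compared genes. With library totals in place of TMM the members' median became 0.02, with 8 members past 2-fold on the higher side and 13 on the lower, where 11.6% of all compared genes were higher and 3.6% lower. Among the 44 members at 10 CPM in both libraries 5 were higher by 2-fold and 7 lower, against 4.86% and 4.68% of all genes at that level. Of the 27 members at 50 CPM in either library 3 were higher and 7 lower, against 5.66% and 5.54% of all such genes.

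The members as a whole took a smaller part of the reads in protein-coding genes with caffeine. Their 252233 reads were 1.42% of those reads in the caffeine library, and their 536490 reads were 2.8% in the untreated library. Without HPODL_00453 the shares were 0.463% with caffeine and 0.675% without. On the TMM scale the log2 ratio of the summed reads was -1.20, or -0.76 without that gene. Without it 82389 reads remained with caffeine and 129582 without. Of these HPODL_02922 held 10348 with caffeine and 33305 without, and HPODL_00500 held 4907 with caffeine and 20726 without. The sums thus follow a few abundant genes more than the typical member, and no sum was made without HPODL_02922 and HPODL_00500.

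**Figure D2:**
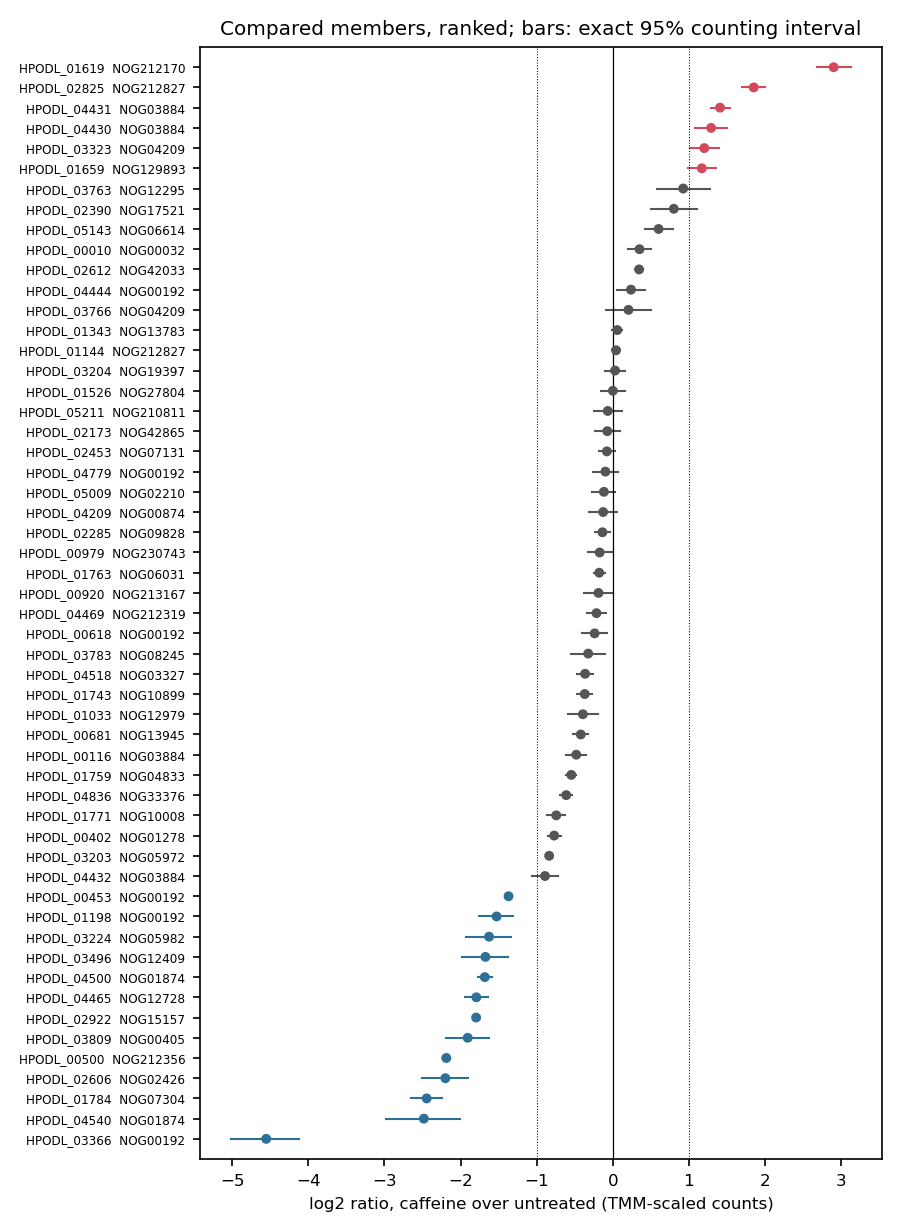
Log2 ratio of caffeine over untreated for the 54 compared members, ranked from the highest at the top, with exact 95% counting intervals as bars and dotted lines at 2-fold. The values run from 2.90 for HPODL_01619 to -4.55 for HPODL_03366, and 6 members lie right of the upper 2-fold line and 13 left of the lower one.

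The 9 compared members with a mean of at least 100 RPKM over both libraries included 3 that were 2-fold lower. None of the 9 was 2-fold higher, and the highest of them was HPODL_02612 at 0.35. Of all compared genes at that level 7.52% were 2-fold lower and 4.47% higher, so that none higher among 9 is near the share of all genes. HPODL_00500, with 4907 reads in the caffeine library and 20726 in the untreated library, had a log2 ratio of -2.19 (-2.23 to -2.14). HPODL_02922 had 10348 reads with caffeine and 33305 without, a log2 ratio of -1.80 (-1.83 to -1.76). HPODL_00453 stood at -1.37 (-1.38 to -1.36) and HPODL_03203, within 2-fold, at -0.84 (-0.88 to -0.80). All 4 of these members, the most abundant by mean RPKM, were thus below 0 on the TMM scale and on that of library totals. With totals HPODL_00453 was at -1.15 and HPODL_03203 at -0.62. By RPKM in the caffeine library alone, HPODL_02612 would stand among the 4 in place of HPODL_00500. The median TMM-scaled log2 ratio of all compared genes with a mean of at least 100 RPKM was -0.15.

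HPODL_03366 (NOG00192), which was compared only through the untreated library, had the lowest TMM-scaled ratio of the 4861 compared genes. It had 45 reads (1.74 RPKM) in the caffeine library and 980 reads (35.2 RPKM) in the untreated library, a log2 ratio of -4.55 (-5.02 to -4.12), or 23.5-fold lower. Its log2 ratio became -3.03 with 5 CPM added to both libraries. Its immediate neighbours on the chromosome stood at -0.68 and -0.18, within 2-fold.

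Of the other lower members, 2 were more than 4-fold lower from moderate levels and 1 from a low level. HPODL_01784 (NOG07304) had 227 reads (8.60 RPKM) with caffeine and 1147 reads (40.4 RPKM) without, a log2 ratio of -2.45 (-2.66 to -2.24). HPODL_02606 (NOG02426) had 119 reads (4.24 RPKM) with caffeine and 507 reads (16.8 RPKM) without, a log2 ratio of -2.20 (-2.50 to -1.91) that became -1.58 with 5 CPM added. HPODL_04540 (NOG01874) had 44 reads (1.71 RPKM) with caffeine and 228 reads (8.25 RPKM) without, a log2 ratio of -2.48 (-2.98 to -2.01) that became -1.29 with 5 CPM added. Of these 3, HPODL_02606 and HPODL_04540 were compared only through the untreated library.

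The remaining lower members stood between -1.91 and -1.53. HPODL_03809 (NOG00405), at 4.75 RPKM with caffeine and 15.4 RPKM without, had -1.91 (-2.20 to -1.63). HPODL_04465 (NOG12728), at 19.2 RPKM with caffeine and 57.3 RPKM without, had -1.79 (-1.95 to -1.64). HPODL_04500 (NOG01874), at 50.7 RPKM with caffeine and 140 RPKM without, had -1.68 (-1.77 to -1.59). HPODL_03496 (NOG12409) was at -1.67 (-1.98 to -1.38), HPODL_03224 (NOG05982) at -1.63 (-1.93 to -1.33), and HPODL_01198 (NOG00192) at -1.53 (-1.75 to -1.31). The intervals of all 13 lower members lie wholly past 2-fold. In all, 8 of the 13 lower members were under 10 RPKM in the caffeine library, and 1 of them was under it in the untreated library.

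The 6 higher members were led by HPODL_01619 (NOG212170), with 1500 reads (75.04 RPKM) in the caffeine library and 186 reads (8.66 RPKM) in the untreated library. Its log2 ratio of 2.90 (2.68 to 3.13), or 7.48-fold, became 2.43 with 5 CPM added. It was compared only through the caffeine library, its 186 untreated reads lying just under the 192 needed. HPODL_02825 (NOG212827) had 1795 reads (80.6 RPKM) with caffeine and 461 reads (19.3 RPKM) without, a log2 ratio of 1.85 (1.70 to 2.00). HPODL_04431 (NOG03884) had 2054 reads (75.5 RPKM) with caffeine and 717 reads (24.5 RPKM) without, a log2 ratio of 1.41 (1.29 to 1.53).

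The other 3 higher members had smaller ratios. HPODL_04430 (NOG03884) had 700 reads with caffeine and 265 without, a log2 ratio of 1.29 with an interval wholly past 2-fold. HPODL_03323 (NOG04209) had 757 reads with caffeine and 305 without, a log2 ratio of 1.20 (1.01 to 1.40). HPODL_01659 (NOG129893) had 864 reads with caffeine and 356 without, a log2 ratio of 1.17 (0.99 to 1.35), and its interval reaches below 2-fold. With 5 CPM added these last 2 stayed only just past 2-fold. With caffeine the 6 genes had 25.9 to 80.6 RPKM, so that none became one of the abundant members.

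Within 2-fold the counting error was mostly small enough to give a sign under TMM, although the 0.22 that separates the scalings is as large as many of these ratios. Of all 54 compared members the interval lay above 0 for 12, below 0 for 31 and held 0 for 11. The matching counts over all compared genes were not worked out, so these have no share beside them. With library totals the sign turned for 11 members, none of them past 2-fold, and 2 further members passed 2-fold on the higher side. These were HPODL_03763 (NOG12295), at 0.93 (0.58 to 1.28) under TMM and 1.14 with totals, and HPODL_02390 (NOG17521), at 0.80 (0.50 to 1.11) under TMM and 1.02 with totals, both named after their values were seen. Of the 54, HPODL_03763 and HPODL_05143, the NOG06614 gene at 0.60 (0.42 to 0.79), overlap a neighbouring gene, so that their reads could have been shared.

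Set against category M, a larger share of the members lay past 2-fold, by a margin that depends on the filter. Within 2-fold lay 64.8% of the compared members, against 39 of the 43 compared category M genes (90.7%), of which 2 were higher and 2 lower. Under TMM the members' median of -0.20 stood against 0.16 for category M. Below 0 on that scale lay 37 of 54 members and 16 of 43 category M genes, beside 2379 of all 4861 compared genes. Of the compared category G genes with a COG number 69 of 107 lay below 0, so this was not particular to the members. With library totals 11 of the members turned to above 0, and the medians were 0.02 for the members and 0.38 for category M. The difference of the medians, -0.36, does not change with the scaling by totals, since that shifts both alike. The median size of the log2 ratio, whatever its sign, was 0.57 for the members, 0.37 for category M and 0.36 for all compared genes. Of the members at 10 CPM in both libraries 72.7% lay within 2-fold, their median size was 0.38, and their quartiles lay 0.68 apart, while all 43 category M genes passed in both libraries and had quartiles 0.82 apart. By quartiles the members at that level lay closer together than the category M genes. No test of these differences was made, since genes of 1 pair of libraries are not replicates.

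The 4 category M genes past 2-fold, named after their values were seen, lay within 4-fold. HPODL_00860 (COG0451, the group of nucleoside-diphosphate-sugar epimerases) had 6077 reads with caffeine and 1758 without, a log2 ratio of 1.68 (1.60 to 1.76). HPODL_00161, of the same group, was at 1.13 (0.94 to 1.33). HPODL_02936 (COG2230, fatty acid methyltransferases of the cyclopropane synthase kind) was at -1.09 (-1.13 to -1.04), and HPODL_03182 (COG1215, glycosyltransferases) at -1.21 (-1.39 to -1.03). These values are on the TMM scale. With library totals 5 category M genes were 2-fold higher and 0 lower, so that these last 2 fell within 2-fold.

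Category G genes that carry a COG number lay between the members and category M in their share past 2-fold. Of 118 such genes 107 were compared, and 19 (17.8%) were 2-fold lower, 8 (7.48%) 2-fold higher and 80 (74.8%) in between. Their median log2 ratio of -0.22 was close to that of the members, and the median size of their log2 ratios was 0.58. At 10 CPM in both libraries 21.2% of them lay past 2-fold, against 27.3% of the members. At that level 17.2% of them were lower and 4.04% higher, against 15.9% and 11.4% of the members. The members' larger share of lower genes was thus not seen with this filter. They stood at higher levels, with a median of 96.3 RPKM in the caffeine library and 96.5 RPKM in the untreated library, against 31.1 and 25.4 RPKM for the compared members. Of genes in other categories with only a NOG number 2082 were compared, of which 6.58% were 2-fold higher and 3.99% lower. With 10 CPM in either library, the members' share past 2-fold was above that of all genes at lower and at higher levels. Among genes under 100 RPKM on average 13.3% of 45 members were 2-fold higher and 22.2% lower, and 8.54% of all 3160 compared genes at that level were higher and 4.05% lower. Past 2-fold in either direction were 35.6% of the members and 12.6% of all genes under that level, and 33.3% of the 9 members and 12% of all genes at or above it. Under that level, 6 of the lower members and 1 of the higher ones passed the filter only through the library in which they are high. Shares by level at 10 CPM in both libraries were not worked out.

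**Figure D3:**
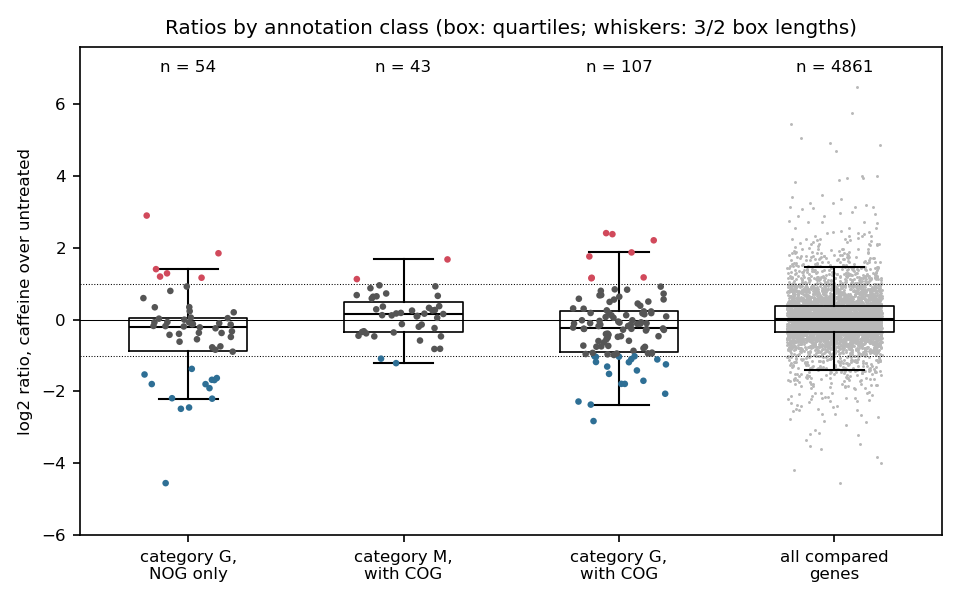
Log2 ratio of caffeine over untreated for the 54 compared members, the 43 compared genes of category M, the 107 compared genes of category G with a COG number, and all 4861 compared genes; boxes give the quartiles, points are genes and dotted lines mark 2-fold. The members reach from -4.55 to 2.90 and the category M genes from -1.21 to 1.68.

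Members of 1 NOG group could have different ratios. Of the 24 pairs of compared members within a group, 16 differed by more than 2-fold in their ratio, and these pairs came from 3 of the 5 groups with 2 or more compared members. The 6 genes of NOG00192 gave 15 of the 24 pairs and 11 of the 16. Over all 24 pairs the share was 66.7%, beside 53.2% of the 1407 pairs of compared members from different groups. Pairs that share a gene are not independent. Without HPODL_03366, which was compared only through the untreated library, 6 of 10 pairs within NOG00192 differed by more than 2-fold. Within the other groups 5 of 9 pairs did so. These figures are closer to the share of pairs from different groups. A difference of 2 log2 ratios within the same libraries does not depend on the scaling, and its interval here is the exact conditional one for 2 genes' counts. Where members of a group are near-identical in sequence the counting could have split reads between them, which was not tested.

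NOG00192, which holds the most abundant member, gave 6 genes, 3 of them 2-fold lower and 3 within 2-fold. The lower ones were HPODL_03366, HPODL_01198 and HPODL_00453, at -4.55, -1.53 and -1.37. HPODL_01198 was at 8.78 RPKM with caffeine and 21.8 RPKM without, far below HPODL_00453 in level, and their ratios differed by 0.16 (-0.07 to 0.38), an interval that holds 0. HPODL_03366 lay 3.18 (2.75 to 3.65) below HPODL_00453. The 3 within 2-fold were HPODL_00618 at -0.24 (-0.41 to -0.07), HPODL_04779 at -0.10 (-0.26 to 0.07) and HPODL_04444 at 0.24 (0.05 to 0.42), all at 15.8 to 21.7 RPKM in both libraries. HPODL_04444 lay 1.61 (1.42 to 1.79) above HPODL_00453.

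NOG03884 held 4 genes, of which HPODL_04430, HPODL_04431 and HPODL_04432 follow each other on the chromosome. The first 2 of this row were 2-fold higher with caffeine, at 1.29 and 1.41, and differed by 0.12 (-0.13 to 0.36). HPODL_04432 had 434 reads (16.4 RPKM) with caffeine and 746 reads (26.2 RPKM) without, a log2 ratio of -0.89 (-1.07 to -0.72), and so lay 2.30 (2.09 to 2.51) below HPODL_04431. The fourth gene, HPODL_00116, lies elsewhere and stood at -0.48 (-0.61 to -0.35). On the other side of HPODL_04430 lies HPODL_04429 (COG0210), no member, at 1.52 (1.38 to 1.66).

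In NOG212827, HPODL_02825 at 1.85 lay 1.81 (1.65 to 1.97) above HPODL_01144, which had 5102 reads (211 RPKM) with caffeine and 4590 reads (177 RPKM) without, a log2 ratio of 0.04 (-0.01 to 0.10). In the untreated library HPODL_01144 was thus the more abundant of this pair by far, and with caffeine the gap in RPKM was smaller. In NOG04209, HPODL_03323 at 1.20 lay 1.00 (0.64 to 1.35) above HPODL_03766 at 0.21 (-0.09 to 0.50), just under the 2-fold limit for a pair. In NOG01874 the compared pair, HPODL_04500 and HPODL_04540, were both lower, at -1.68 and -2.48, and the remaining gene of the group was among those with few reads.

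**Figure D4:**
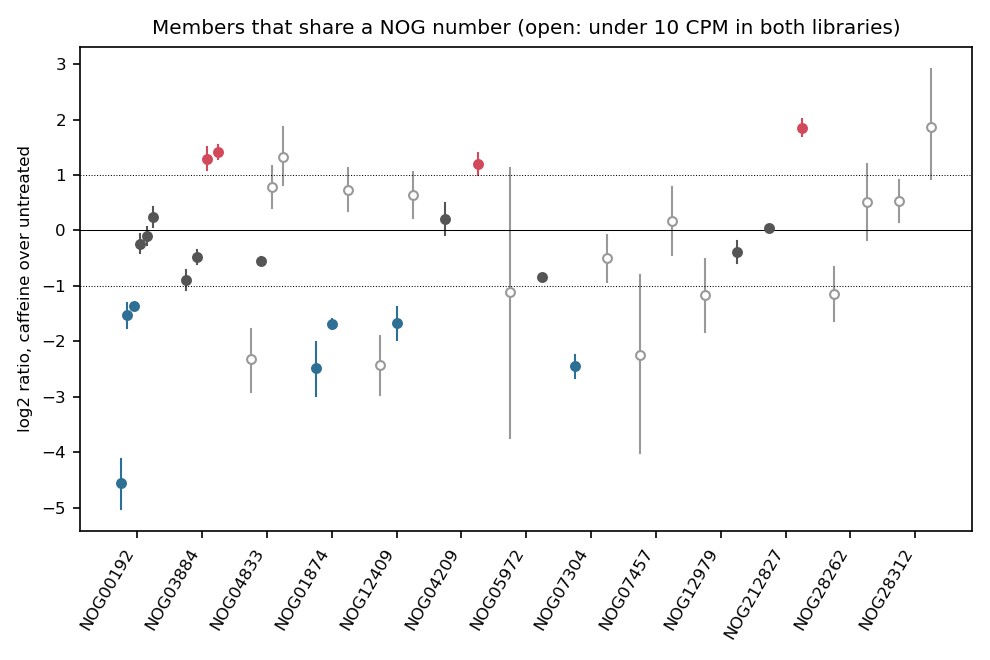
Log2 ratio of caffeine over untreated for the 36 members that share a NOG number, in columns by group, with exact 95% counting intervals; open points are genes under 10 CPM in both libraries and dotted lines mark 2-fold. NOG00192 spans from -4.55 to 0.24 and NOG03884 from -0.89 to 1.41.

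The 21 members under 10 CPM in both libraries had 2 to 172 reads with caffeine and 1 to 188 reads without, and at most 16.8 RPKM with caffeine and 6.82 RPKM without. Their log2 ratios ran from -2.42 to 1.96. The interval lay above 0 for 8, below 0 for 7 and held 0 for 6, while 3 were higher by 2-fold or more and 7 lower. Counted with them, 9 of all 75 members were 2-fold higher and 20 lower, where without a filter 7.72% of all genes were higher and 5.95% lower. Over all genes 411 of 5325 were higher and 317 lower without a filter, beside 346 and 256 of the 4861 compared. Genes under the filter thus lay past 2-fold more often than compared genes did. No share was worked out for the interval counts. The median of the 21 was 54 reads in each library. HPODL_02669 (NOG12409), with 38 reads with caffeine and 188 without, lay just under the limit for comparison and gave the lowest of these values, -2.42 (-2.96 to -1.91). It, too, was named after its values were seen.

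Some members with few reads lay far from others of their NOG group, and those named here were chosen after their values were seen. Of the 17 pairs within a group that include such a member, 9 had an interval of the difference wholly past 2-fold. That rule is stricter than the one used for the compared pairs. Pairs from different groups that include such a member were not counted, so the 9 have no share beside them. In NOG04833, HPODL_02374 had 122 reads with caffeine and 45 without, HPODL_00917 had 172 with caffeine and 93 without, and HPODL_00134 had 33 with caffeine and 153 without. HPODL_02374 at 1.33 thus lay 3.65 (2.88 to 4.43) above HPODL_00134 at -2.32, while the abundant gene of the group, HPODL_01759, stood between them at -0.55 with 142 RPKM with caffeine and 179 RPKM without. In NOG01874, HPODL_02395 at 0.73 (0.35 to 1.12) lay 2.41 (2.02 to 2.81) above HPODL_04500. In NOG12409, HPODL_05060 at 0.64 (0.22 to 1.06) lay 2.31 (1.79 to 2.84) above HPODL_03496. In NOG07304, HPODL_04520 at -0.50 (-0.93 to -0.08) lay 1.94 (1.46 to 2.42) above HPODL_01784.

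Many members lay near the ends of chromosomes, as the order of genes in the RefSeq table (assembly Hansenula_2) shows. Among the last 25 genes before an end were 25 of the 75 members (33.3%), against 15.6% of the category M genes, 14.4% of the category G genes with a COG number, 5.66% of genes in other categories with only a NOG number and 6.57% of all genes. With the last 10 genes the figures were 20% of members and 2.63% of all genes, and with the last 50 genes 40% and 13.1%. The windows were chosen with the data in view, and the ends are those of the assembled sequences.

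Members near an end had low levels. Those within 25 genes of one had a median of 4.84 RPKM with caffeine and 3.53 RPKM without, and the 50 others a median of 30.7 RPKM with caffeine and 25.4 RPKM without. All 350 genes within 25 genes of an end had medians of 16.5 RPKM with caffeine and 10.5 RPKM without. Of the 25 members near an end 9 were compared, and of the 50 others 45 were. Of those 9, none was 2-fold higher and 3 were 2-fold lower, namely HPODL_04540, HPODL_04500 and HPODL_03224, while of all 215 compared genes near an end 20.5% were higher and 9.3% lower. The 6 higher compared members lay farther inside. Of the 16 members near an end that were under the filter, 3 were 2-fold higher and 4 lower. Over all 25 members near an end the interval lay above 0 for 9, below 0 for 9 and held 0 for 7. The matching counts over all genes near an end, under the filter and by interval, were not worked out. These member counts therefore have no share beside them.

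**Figure D5:**
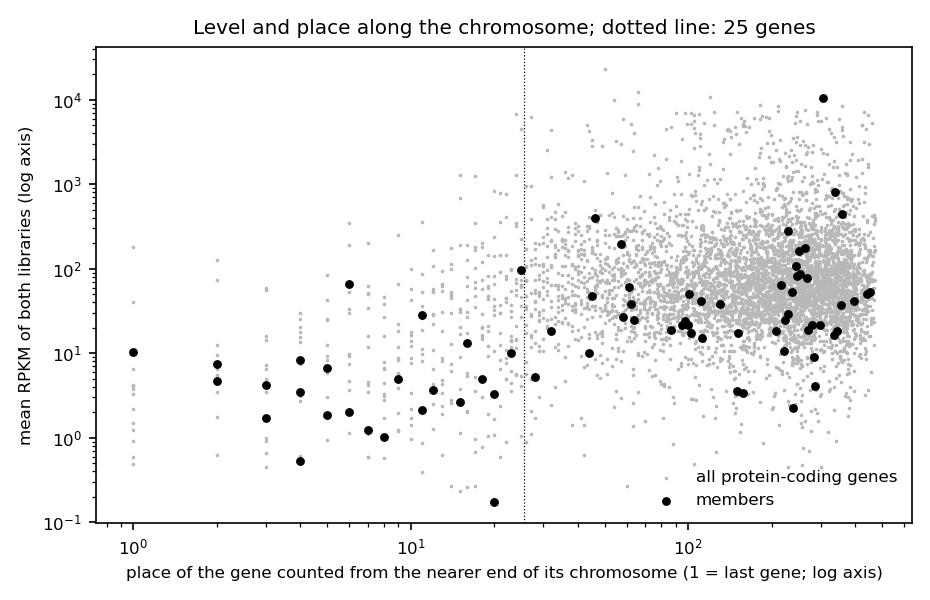
Mean RPKM of both libraries (vertical, log axis) against the place of a gene counted from the nearer end of its chromosome (horizontal, log axis, where 1 is the last gene), with members in black and all protein-coding genes in grey. Of the 75 members 25 lie left of the dotted line at 25 genes, most of them under 10 RPKM.

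Genes beside the members past 2-fold went the same way in some places and the opposite way in others. Of the 19 members past 2-fold, 7 (36.8%) had an adjacent compared gene past 2-fold in the same direction, against 27.9% of all 602 genes past 2-fold. An adjacent compared gene past 2-fold in the opposite direction stood beside 2 of the 19 (10.5%), against 7.48% of the 602. HPODL_01619 had HPODL_01618 (NOG05687, category K for transcription) beside it at 1.60 (1.38 to 1.84). HPODL_01784 had HPODL_01783 (NOG15121, category K) beside it, with 105 reads in the caffeine library and 1769 in the untreated library, a log2 ratio of -4.18 (-4.48 to -3.90). HPODL_03224 was next to HPODL_03225 (COG5309, a group of glucanases) at -1.18 (-1.21 to -1.16). The opposite ones were HPODL_04464 at 2.56 (2.34 to 2.80), beside HPODL_04465 at -1.79, and HPODL_01197 (COG1241) at 1.03 (0.95 to 1.11), beside HPODL_01198 at -1.53. These neighbours were named after their values were seen.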

How the data were processed

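RNA was extracted with hot phenol and sequenced as stranded mRNA libraries in paired reads, per the labels' protocols. Bowtie2 was used, per the submitters' processing notes. The counting tool, genome build, annotation and use of strand are each not given in the sources used here, and the strand column reads plus for all 5408 features. The authors deposited raw read counts per gene, and RPKM values made from them. Their RLE and TMM tables and a sheet of quartiles were not used.

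All 5408 locus tags matched the RefSeq table of assembly Hansenula_2, which was used for gene type and gene order only. Counts of 5325 protein-coding genes were scaled with edgeR 4.0.16 (TMM, effective totals of 19186645 for caffeine and 17788292 for untreated) in R 4.3.3, with size factors of DESeq2 1.42.0 as an alternative. Neither tool was used for a test. Genes at 10 CPM of the protein-coding total in either library were compared, and called by size (2-fold). This filter was settled after results of a filter on TMM-scaled CPM had been seen. Intervals are exact Clopper-Pearson intervals (95%, scipy 1.17.1) of the share of a gene's reads that came from the caffeine library, expressed as ratios. PCR reads are not independent molecules, so they cover counting error only. They reached a median of 0.16 log2 units to either side over the compared members. The calculation was tested on simulated counts.

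The members and lists were chosen with earlier results of these data known. Named were up to 10 highest and 10 lowest members past 2-fold, the 4 most abundant and members that differ within a NOG group; members under the filter were to be given by count and range only. HPODL_03224, as the only other compared member past 2-fold, and those under the filter that are named were added after their values were seen.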

Additional observations from a re-analysis of the deposited data

How the results depend on the processing

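No scaling took a member out of those past 2-fold, while library totals and the deposited RPKM each added 2 on the higher side. With library totals the median log2 ratio was 0.017 for members and 0.38 for category M genes, with the deposited RPKM 0.013 and 0.37, and both settings gave 5 higher and 0 lower genes in category M, against 2 and 2 with TMM. DESeq2 size factors, 0.01 below TMM, left 6 members higher and 13 lower. Without a filter 20 members were at least 2-fold lower, and with 10 CPM required in both libraries, a setting chosen after seeing the data, 7. At 50 CPM in either library 3 members were higher and 7 lower, and in category M 1 and 1. Adding 5 CPM left 6 members higher and 13 lower and gave 1 higher gene in category M. At 4-fold 1 member was higher and 5 lower (2 and 3 with library totals), with 0 and 0 in category M. At 1.5-fold 9 members were higher and 18 lower, and category M had 11 higher and 4 lower genes. The share of all compared genes at 1.5-fold was not worked out. Filtering on TMM-scaled CPM, the filter used first and replaced after its results were seen, gave 6 members higher and 14 lower. The difference of the medians stayed between -0.56 and -0.34 in all of these settings. Taking in mixed category letters added no member. Depth limits the 21 members under the filter. No paired analysis was possible because each group has 1 library.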
